A study of Ovis aries with 15 samples.

Results

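ZNF genes encode zinc finger proteins, named by the prefix ZNF and a number, and their promoters were followed in sheep fat before and after birth. Members were the gene names of the deposited promoter tables that begin with ZNF and a digit, apart from 1 gene set aside by the rule, which gave 204 of 18465 gene names. Perirenal fat, the depot around the kidney, came from wild-type purebred merino lambs and fetuses that received no treatment. Lambs are given as 80 days old in the series design and as 89 days old in the growth protocol, and they had been reared by their ewes. Fetuses were taken at 132 days of gestation, with term at 150 days. Chromatin was digested with micrococcal nuclease and precipitated for H3K27ac (2 lambs and 2 fetuses), H3K4me3 (3 lambs and 2 fetuses) and H3K27me3 (2 lambs and 2 fetuses). All 3 marks were profiled in animals 1 and 2 of either stage, and lamb 3 was profiled for H3K4me3 alone. Lamb titles carry the tag VEH and fetal titles lack it, so stage and whatever the tag stands for cannot be told apart. Sex is not in the labels.

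The zinc finger of this family is a small fold held by a zinc ion, and arrays of such fingers read DNA sequence. A large part of the family also carries a KRAB domain, which recruits the corepressor TRIM28 (KAP1) and the methyltransferase SETDB1 to silence transposable elements, and many of these genes sit in clusters of related copies. Other ZNF genes are activators of housekeeping promoters, splicing or RNA-binding proteins, or regulators of fat cell formation. H3K4me3 marks the start of active and poised genes, H3K27ac marks active promoters and enhancers, and H3K27me3 is laid down by Polycomb at silenced genes.

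The values are deposited promoter signals, rescaled between libraries and given below as scaled values. They are not divided by gene or promoter length, so levels are compared as promoter signal only. Reads in the deposited peak regions numbered between 34871674 and 44096535 per library for H3K27ac, between 12482468 and 58333449 for H3K4me3 and between 7233767 and 10645917 for H3K27me3. H3K4me3 lambs 2 and 3 were the shallow libraries of that mark, with 13090548 and 12482468 reads. In the fat itself, 7 of 8 adipocyte markers had an H3K27ac promoter, at a median level percentile of 92.0, and 5 of the 7 were lower in lambs (as were 45.0% of all promoters in the strongest of 4 level groups of this mark), with sums of 1742 to 1751 in lambs and 2576 to 3000 in fetuses. Lymphocyte markers moved the other way, with 4 of 6 measured markers higher in lambs and sums of 1029.8 to 1208 in lambs and 635 to 684 in fetuses. Their median level percentile was 27.4, and 16.6% of all promoters in the second weakest level group were higher. Endothelial markers were lower at 3 of 5 (sums of 1256 to 1350.04 in lambs and 1536 to 1617 in fetuses), and 2 of 4 stromal markers were lower and 1 higher (830 to 950.3 in lambs and 1235 to 1521 in fetuses). The median level percentile of endothelial markers was 84.2, in the strongest group, where 45.0% of all promoters were lower. That of stromal markers was 63.5, in the second strongest group, where 17.2% of all were lower and 9.50% higher. Whole tissue was used, so fewer cells of a type and less of a mark per cell cannot be told apart, and the part of these shifts in the ZNF results below was not tested.

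ZNF promoters were mostly marked by H3K4me3 and H3K27ac and seldom by H3K27me3. The H3K4me3 table held 176 of the 204 members (86.3%), against 69.8% of the other 18261 gene names. The H3K27ac table held 156 members (76.5%), against 71.5% of the others. In the H3K27me3 table there were 21 members (10.3%), against 34.6% of the others. Each listed promoter reached a deposited value of about 50 or more in some library, and the values of unlisted promoters are not known here.

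The combination of H3K27ac and H3K4me3 without H3K27me3 was the commonest state, at 127 members (62.3%) against 44.2% of other names. H3K4me3 alone was listed for 33 members (16.2%) against 6.42% of others, and H3K27ac alone for 23 (11.3%) against 14.8%. A further 11 members had H3K4me3 with H3K27me3 (5.39% against 8.77%), 5 had all 3 marks (2.45% against 10.4%), 4 had H3K27me3 alone (1.96% against 13.3%) and 1 had H3K27ac with H3K27me3. Among H3K4me3 promoters, H3K27me3 was listed at 16 of 176 members (9.09%) and at 27.5% of other promoters, or 25.4% when these were weighted to the H3K4me3 levels of the members. Among H3K27ac promoters the shares were 6 of 156 (3.85%) and 17.5%, or 15.4% after the same weighting. The share of members with H3K27me3 was thus below that of other promoters also at like levels of the active marks.

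**Figure D1:**
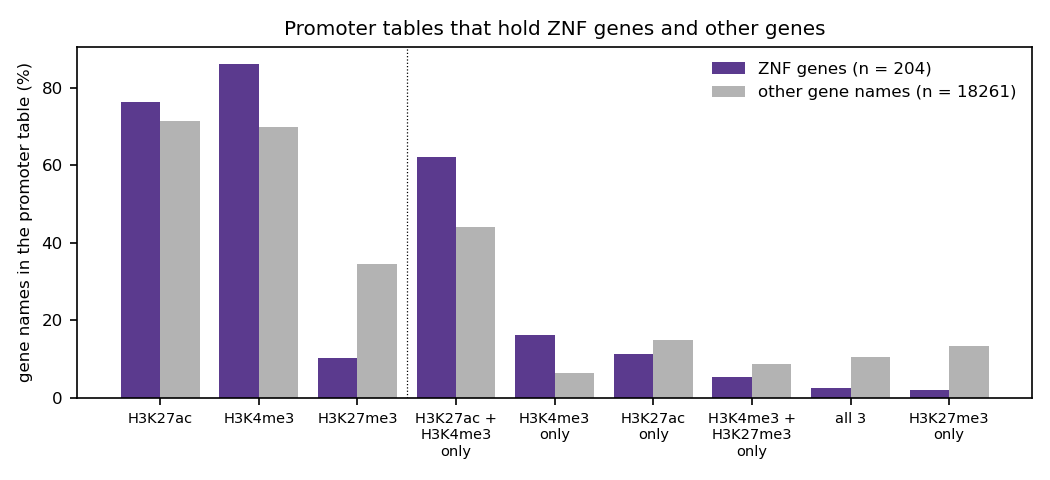
Bars give the share of gene names (%) listed in each promoter table, left of the dotted line, and in each exclusive combination of tables, right of it, for the 204 ZNF genes and the 18261 other names. ZNF genes have the taller bar for H3K4me3 and for H3K27ac with H3K4me3, and the shorter one in each plotted combination that includes H3K27me3, as in 10.3% against 34.6% for H3K27me3 in all.

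Levels of the active marks at ZNF promoters were slightly above those of the whole tables. The median H3K27ac value of the members was 213 and 219 in lambs 1 and 2 and 209 and 196 in fetuses 1 and 2, while the other promoters had medians of 192 and 193 in the lambs and 186 and 188 in the fetuses. For H3K4me3 the members' medians were 468, 431 and 431 in lambs 1 to 3 and 462 and 415 in the fetuses, against 371, 386 and 374 in the lambs and 390 and 348 in the fetuses for other promoters. In H3K27me3 the 21 members were weak, at 121 and 153 in lambs and 121 and 108 in fetuses, against 180 and 177 in lambs and 158 and 155 in fetuses. The median ZNF promoter stood at level percentile 58.6 in H3K27ac, 56.5 in H3K4me3 and 27.9 in H3K27me3.

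ZNF608 was among the 3 most strongly marked members in both active marks. This gene, a relative of the chromatin-associated factor ZNF609, had the highest H3K27ac of the family, at 383 and 438 in lambs and 767 and 872 in fetuses and stood at percentile 99.8 of all promoters. After it came ZNF326, part of a complex that links splicing to transcription, with 387 and 423 in lambs and 521 and 614 in fetuses, and ZNF436, with 330.3 and 360.4 in lambs and 546 and 487 in fetuses. In H3K4me3 the highest were ZNF608 (1443, 862 and 901 in lambs, 1546 and 3408 in fetuses), ZNF277 (1609, 1036 and 999 in lambs, 1826 and 2485 in fetuses) and ZNF830 (1332, 1009 and 1118 in lambs, 1374 and 1894 in fetuses). All 5 of these promoters lay above percentile 97 in the mark named for them. At the low end of H3K27ac stood ZNF804A, a gene of the nervous system (52.6 and 48.1 in lambs, 36.6 and 84.9 in fetuses), ZNF703 (57.3 and 57.5 in lambs, 87.5 and 64.0 in fetuses) and ZNF514 (79.0 and 76.4 in lambs, 86.1 and 53.2 in fetuses). ZNF467, ZNF446 and ZNF672 were the lowest in H3K4me3, with lamb means of 48.0 ± 10.6, 91.9 ± 20.0 and 114 ± 50.8 (SD, n = 3) and fetal means of 37.1 ± 19.1, 53.1 ± 24.0 and 62.6 ± 61.5 (SD, n = 2). The stages overlapped at ZNF804A and ZNF514 in H3K27ac and at all 3 of these in H3K4me3. Over all promoters they did not overlap at 66.4% in H3K27ac and 48.5% in H3K4me3.

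The change with age followed level across the H3K27ac and H3K4me3 tables, with strong promoters lower and weak ones higher in lambs, and the median change of ZNF promoters also fell with level. With all H3K27ac promoters cut into 4 groups of equal size by level, 17 of the 54 members in the strongest group were lower in lambs and 0 were higher, against 45.0% and 2.60% of all promoters there. In the weakest group 2 of 31 were higher (6.45%) and 0 lower, against 16.9% and 2.51% of all promoters there. The next one held 6 of the 9 higher members and 1 lower one, or 21.4% and 3.57% of its 28, against 16.6% and 6.08% of all. The median H3K27ac log2 changes of members from the weakest to the strongest group were 0.18, 0.19, 0.05 and -0.16, against 0.28, 0.15, -0.03 and -0.31 for all promoters. For H3K4me3 the median log2 change of members was 1.10 in the weakest group and -0.53 in the strongest, close to 1.16 and -0.54 for all promoters. Strong promoters were lower in H3K27me3 too. All promoters there had a median log2 change of 0.24 in the weakest group and -0.37 in the strongest. Each change is therefore also given level-matched, as the log2 change less the median change of all promoters in the same of 20 groups of equal size by level.

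**Figure D2:**
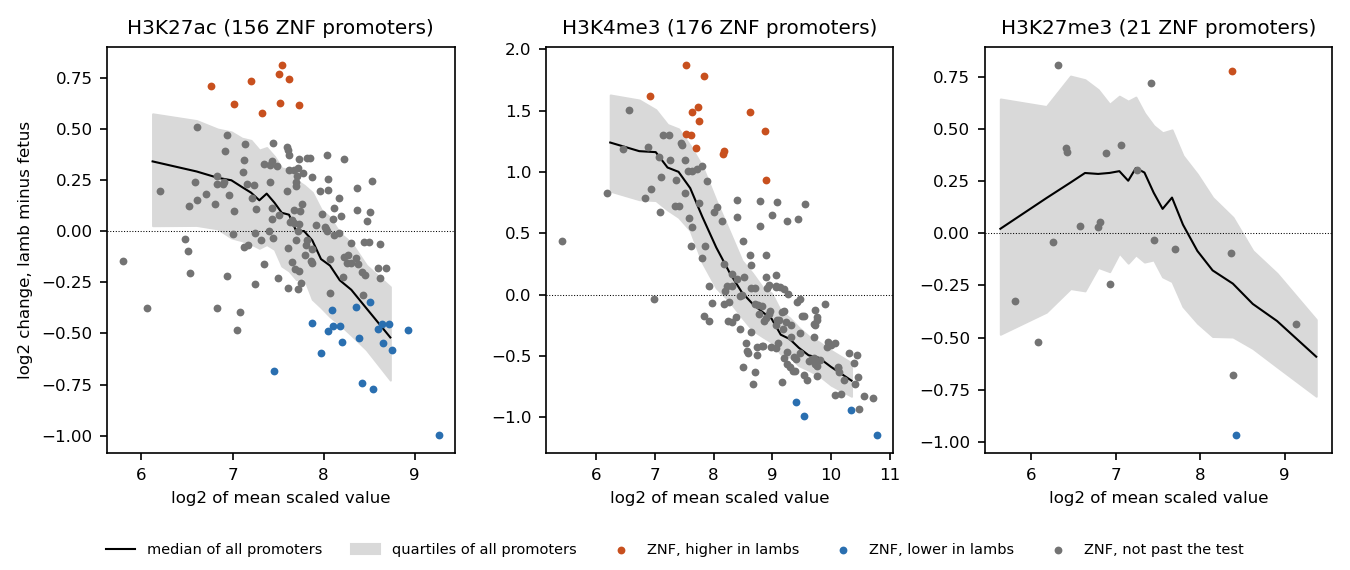
Each point is 1 ZNF promoter, with the log2 of its mean scaled value on the x axis and its log2 change (lamb minus fetus) on the y axis, coloured by the limma call. The black line and grey band are the median and quartiles of all promoters in 20 groups by level. Most ZNF points lie in or near the band, which runs downhill in H3K27ac and H3K4me3 and, at the upper levels, in H3K27me3.

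H3K27ac was lower in lambs at 20 ZNF promoters and higher at 9 of the 156 (limma on log2 of scaled value plus 1, adjusted p under 0.05). That is 12.8% lower and 5.77% higher, beside 17.7 and 11.4% of all 13222 promoters (29.1% called in either direction). All promoters weighted to the ZNF levels gave 21.5% lower and 10.2% higher. The median log2 change of the members was 0.02 and the level-matched median 0.04, with quartiles of -0.16 and 0.26, against -0.25 and 0.23 for all promoters, and 89 of 156 lay above the median of their level. Lamb and fetal values did not overlap at 96 members (61.5%), beside 66.4% of all promoters. The split of calls moved with scaling, to 15 higher and 7 lower after a cyclic loess that removes the slope with level, beside 8.64 and 10.2% of all promoters, and to 36 lower and 0 higher with the scaling kept as deposited, where 30.3% of all promoters were lower.

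ZNF608 fell most, to 383 and 438 in lambs against 767 and 872 in fetuses, a log2 change of -0.997 with a standard error of 0.12 (limma adjusted p = 3.91e-05) and a level-matched change of -0.51. The human ZNF608 locus is associated with body mass index. ZNF300, a KRAB gene, fell to 265 and 283 in lambs against 409 and 537 in fetuses (log2 change -0.77, standard error 0.14, limma adjusted p = 0.000566). ZNF207, whose protein binds BUB3 at the mitotic spindle, fell to 235 and 279 in lambs against 426 and 431 in fetuses (log2 change -0.74, standard error 0.13, limma adjusted p = 0.000448). The lambs lay below the fetuses at all 3, and these 3 and ZNF436 (log2 change -0.58, limma adjusted p = 0.00201) were the 4 falls that passed the test without any 1 of the libraries. For ZNF436 the level-matched change was -0.10, so most of its fall was shared with promoters of its level.

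ZNF318, which controls IgD splicing in mouse B cells, fell at a middling level, to 122 and 149 in lambs against 214 and 220 in fetuses, and had the lowest level-matched change of the 20, at -0.82 (log2 change -0.68, limma adjusted p = 0.00636). The zinc finger gene ZNF532, a partner of ZNF592 and ZNF687, fell to 183 and 215 in lambs against 329 and 274 in fetuses (log2 change -0.60, limma adjusted p = 0.0057). ZNF24, a SCAN-domain repressor of VEGFA, fell to 239 and 242 in lambs against 348 and 353 in fetuses (log2 change -0.54, limma adjusted p = 0.0037). ZNF184 had 303 and 350.4 in lambs against 458 and 496 in fetuses (log2 change -0.55, limma adjusted p = 0.00327) and a level-matched change of -0.07. All 4 lost the call without lamb 1, where the limma adjusted p was between 0.0586 and 0.198. The remaining 12 falls ran from ZNF277 at -0.52 to ZNF829 at -0.35, and 5 of them, ZNF326, ZNF613, ZNF330, ZNF706 and ZNF829, had level-matched changes within 0.05 of 0.

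Among the rises, ZNF341, an activator of STAT3 in human, was highest by log2 change, with 247 and 227 in lambs against 148 and 123 in fetuses (log2 change 0.81, standard error 0.16, limma adjusted p = 0.00169). ZNF792 had 215 and 245 in lambs against 141 and 129 in fetuses (log2 change 0.77, standard error 0.16, limma adjusted p = 0.00232). ZNF667 had 282 and 211 in lambs against 178 and 119 in fetuses (log2 change 0.74, standard error 0.19, limma adjusted p = 0.0088). In each the lambs lay above the fetuses, and the level-matched changes were 0.68, 0.63 and 0.64. ZNF215, which is imprinted in human, had 196 and 172 in lambs against 98.6 and 122 in fetuses (log2 change 0.74, limma adjusted p = 0.00869). ZNF365, a centrosomal protein gene, had 262 and 253 in lambs against 169 and 167 in fetuses (log2 change 0.61, limma adjusted p = 0.00437). ZNF197 and ZNF287, which combine SCAN and KRAB domains, rose by 0.71 and 0.62, ZNF235 by 0.63 and ZNF280D by 0.58. None of the 9 rises passed the test in every fit that left out 1 library: ZNF792 passed without lamb 1, ZNF341 and ZNF667 passed without lamb 2, and the other 6 passed in neither of those fits. Adjusted for level by cyclic loess, 5 rises (ZNF341, ZNF792, ZNF667, ZNF365 and ZNF235) and 5 falls (ZNF608, ZNF300, ZNF207, ZNF318 and ZNF532) still passed.

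**Figure D3:**
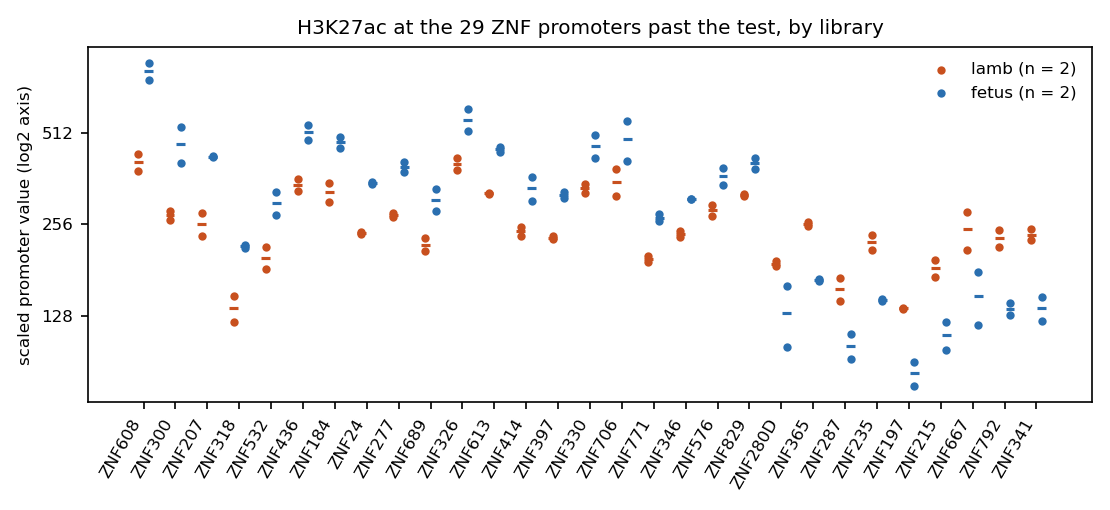
Scaled H3K27ac values (log2 axis) of each library at the 29 ZNF promoters past the test, ordered by log2 change, with 2 lambs left and 2 fetuses right and a bar at each mean. ZNF608 at the left has 383 and 438 in lambs against 767 and 872 in fetuses, and ZNF341 at the right has 247 and 227 in lambs against 148 and 123 in fetuses.

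H3K4me3 was higher in lambs at 14 ZNF promoters and lower at 4 of 176 (limma adjusted p under 0.05). These shares of 7.95 and 2.27% stand beside 8.33 and 1.9% of all 12922 promoters (10.2% in either direction) and 6.68 and 2.13% at the ZNF levels, so the members were called about as often as other promoters. Their median log2 change was -0.07 and the level-matched median 0.05, with quartiles of -0.21 and 0.29. Stages did not overlap at 94 members (53.4%), beside 48.5% of all promoters. Without lamb 2, without lamb 3, or after cyclic loess, 0 of 176 members passed limma's adjusted threshold, while 23, 19 and 32 had an unadjusted p under 0.05. Of all 12922 promoters, 40 were higher and 10 lower without lamb 2, and 8 and 4 without lamb 3. After cyclic loess 0 of all promoters passed. With the scaling kept as deposited, 80 members were lower and 0 higher, where 43.5% of all promoters were lower.

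ZNF554 had the largest rise, with 199, 359.7 and 308 in lambs against 98.0 and 58.9 in fetuses (log2 change 1.87, standard error 0.44, limma adjusted p = 0.00748, level-matched change 0.89). ZNF550 had 269, 447 and 327 in lambs against 155 and 61.8 in fetuses (log2 change 1.79, standard error 0.40, limma adjusted p = 0.00523). The spread among the lambs followed the library, with lamb 1 lowest at both genes. ZNF366, known as DC-SCRIPT in dendritic cells, had 108, 241 and 205 in lambs against 66.3 and 47.5 in fetuses (log2 change 1.62, limma adjusted p = 0.0477). Its level was low, at percentile 9.33, and its level-matched change was 0.37. Beside it, 2 of 5 macrophage markers were higher in lambs in H3K4me3 (sums of 1775 to 2049.7 in lambs and 1089 to 1423 in fetuses). So were 3 of 5 lymphocyte markers (960.4 to 1468 in lambs and 399 to 693 in fetuses). Their median level percentiles were 22.1 and 26.9, in the weakest and second weakest of 4 level groups. There 20.1% and 12.01% of all promoters were higher. Without lamb 2 or lamb 3, 40 and 8 of all promoters were higher, and marker counts are not given for those fits. In H3K27ac ZNF366 did not pass the test, with 318 and 272 in lambs against 315 and 323 in fetuses (log2 change -0.11, limma adjusted p = 0.521). In that mark 1 of 4 macrophage markers was higher and 1 lower (sums of 816 to 850 in lambs and 806 to 815 in fetuses). Their median level percentile was 51.1, in the second strongest group, where 9.50% of all promoters were higher and 17.2% lower. The part of macrophage and lymphocyte markers in the H3K4me3 rise of ZNF366 was not tested.

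ZNF404 and ZNF793 rose furthest from promoters of their level, both with a level-matched change of 1.47. ZNF404 had 479, 712 and 556 in lambs against 224 and 186 in fetuses (log2 change 1.49, standard error 0.29, limma adjusted p = 0.00205). ZNF793 had 636, 734 and 642 in lambs against 331 and 212 in fetuses (log2 change 1.33, standard error 0.28, limma adjusted p = 0.00306). The lambs stood well clear of the fetuses at both, and their limma adjusted p without lamb 2 or lamb 3 was between 0.0561 and 0.0953. ZNF391 came next by level-matched change, at 1.08, with 524, 744 and 607 in lambs against 372 and 281 in fetuses (log2 change 0.93, limma adjusted p = 0.0275). ZNF566 (log2 change 1.53), ZNF713 (1.49), ZNF268 (1.42), ZNF649 (1.31), ZNF619 (1.30), ZNF507 (1.20), ZNF624 (1.17) and ZNF527 (1.15) made up the rest, with level-matched changes of 0.32 to 0.80.

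The 4 falls were ZNF608, ZNF311, ZNF184 and ZNF397. ZNF608 fell to 1443, 862 and 901 in lambs against 1546 and 3408 in fetuses (log2 change -1.14, standard error 0.37, limma adjusted p = 0.0422). ZNF311 fell to 634, 415 and 418 in lambs against 681 and 1325 in fetuses (log2 change -0.99, limma adjusted p = 0.0252). Fetus 2 was far above fetus 1 at each, and fetus 1 lay close to lamb 1. Without fetus 2 the 4 falls did not pass (limma adjusted p from 0.247 to 0.414), while 9 of the 14 rises did.

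**Figure D4:**
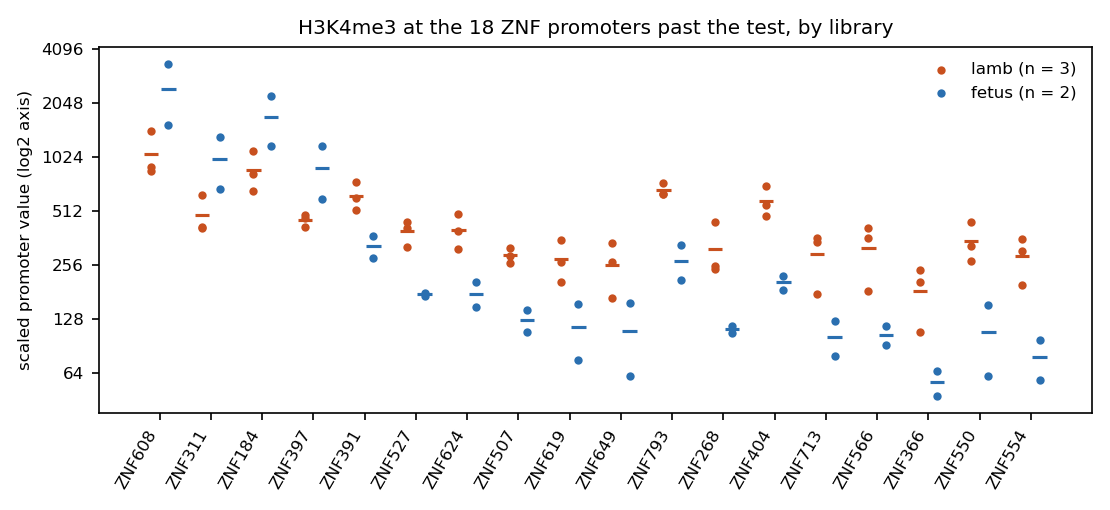
Scaled H3K4me3 values (log2 axis) of each library at the 18 ZNF promoters past the test, ordered by log2 change, with 3 lambs left and 2 fetuses right and a bar at each mean. Fetus 2 stands far above the other libraries at the 4 falls on the left, as in 3408 at ZNF608, while the lambs lie above both fetuses at the 14 rises.

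Of the 132 members measured in both active marks, 3 were called in both, and all 3 were lower in lambs. They were ZNF608 (log2 change -0.997 in H3K27ac and -1.14 in H3K4me3), ZNF184 (-0.55 and -0.94) and ZNF397 (-0.46 and -0.87). No member was higher in both or changed in opposite directions, while among all 10103 promoters listed in both 132 were higher in both, 189 lower in both and 16 opposite. The 20 promoters with lower H3K27ac were all in the H3K4me3 table and all had an H3K4me3 log2 change below 0, against 1998 of 2259 among all promoters with lower H3K27ac. For the 4 higher ones in both tables the H3K4me3 change was above 0 in 4, against 652 of 804. These signs were not level-matched, and 17 of the 20 were in the strongest of 4 H3K27ac level groups. In the strongest H3K4me3 group all promoters had a median log2 change of -0.54. The 2 marks were measured in the same animals 1 and 2, so these counts do not come from separate animals.

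**Figure D5:**
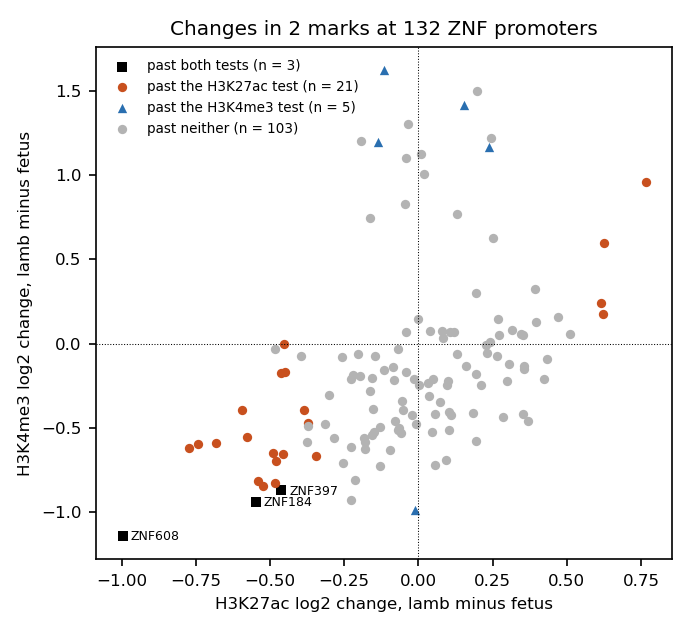
Each point is 1 of 132 ZNF promoters, with the H3K27ac log2 change (lamb minus fetus) on the x axis and the H3K4me3 log2 change on the y axis. The 20 promoters with lower H3K27ac all lie below 0 on the y axis, and ZNF608, ZNF184 and ZNF397 passed both tests. Neither change is level-matched.

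ZNF promoters that gained H3K4me3 were largely without a listed H3K27ac promoter. Of the 44 members with H3K4me3 that are not in the H3K27ac table, 10 rose and 0 fell (22.7% higher), and of the 132 listed there 4 rose and 4 fell (3.03% each). Other promoters showed the same contrast, with 21.4% higher and 0% lower outside the H3K27ac table and 4.69% higher and 2.42% lower inside it. These shares were not level-matched. The median H3K4me3 level percentile was 31.1 for the 44 members and 65.7 for the 132, and 21.7 and 59.8 for other promoters. From the weakest to the strongest of 4 level groups, 20.1%, 12.01%, 1.02% and 0.186% of all promoters were higher. The part of level in the contrast of shares was not tested. The level-matched median H3K4me3 change was 0.35 for the 44 members and 0.15 for the other 2775 promoters outside the H3K27ac table. Inside it the medians were -0.00294 for the 132 members and -0.0209 for other promoters.

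H3K27me3 was measured at 21 members, of which 1 was higher and 1 lower in lambs, beside 4.42 and 8.83% of all 6334 promoters (13.2% in either direction). Both were in the strongest of 4 level groups of this mark, where 1.39% of all promoters were higher and 25.4% lower. After cyclic loess the rise passed and the fall did not, beside 2.34 and 3.88% of all promoters (6.22% in either direction). Stages did not overlap at 9 of the 21 (42.9%), beside 59.8% of all promoters. ZNF683, known as Hobit, a factor of tissue-resident lymphocytes, rose to 445 and 396 in lambs against 225 and 266 in fetuses (log2 change 0.78, standard error 0.23, limma adjusted p = 0.0283, level-matched change 1.01). Its promoter is in neither of the other tables. Of 5 lymphocyte markers measured in H3K27me3, 1 was higher and 0 lower in lambs. Their median level percentile was 79.5, also in the strongest group, where 1.39% of all promoters were higher. Their sums were 1311 to 1608 in lambs and 1296 to 1398 in fetuses, and their part in the rise of ZNF683 was not tested. ZNF638, an RNA-binding protein that promotes adipocyte formation with C/EBP factors in mouse cells, fell to 197 and 268 in lambs against 403 and 502 in fetuses (log2 change -0.97, standard error 0.24, limma adjusted p = 0.0114, level-matched change -0.74). Its H3K4me3 was 154, 246 and 240.5 in lambs against 115 and 138 in fetuses, which did not pass the test (log2 change 0.72, limma adjusted p = 0.202).

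Reads were few in this mark, where 1 read is worth about 3.5 deposited units, and both calls were lost without fetus 1, without fetus 2 or without lamb 2 (limma adjusted p from 0.054 to 0.314). ZNF385D, of neural tissues, had 278 and 235 in lambs against 359.6 and 468 in fetuses and just missed the threshold (log2 change -0.68, limma adjusted p = 0.0558). ZNF232 had the highest H3K27me3 of the family, with 442 and 515 in lambs against 655 and 636 in fetuses (limma adjusted p = 0.114). The lowest was ZNF804A, with 29.5 and 74.2 in lambs and 47.0 and 74.1 in fetuses. The level-matched median of the 21 was -0.21 and their median log2 change 0.03. Without lamb 1 the level-matched median was 0.17, and without fetus 1 it was -0.05.

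Members that carry both H3K4me3 and H3K27me3 had larger H3K4me3 changes than those with H3K4me3 and no listed H3K27me3. In the 16 with both, the median H3K4me3 value was 447 in lambs and 341 in fetuses, the median log2 change 0.60 and the level-matched median 0.49. In the 160 without H3K27me3 these were 434 in lambs, 492 in fetuses, -0.13 and 0.02. For other promoters the medians were 0.56 and 0.13 level-matched with H3K27me3, and -0.16 and -0.04 without it. Of the 16, 4 rose, namely ZNF550, ZNF404, ZNF713 and ZNF391, and 0 fell, against 10 and 4 of the 160. Other promoters had the same order of shares, with 14.5% higher and 0.57% lower where H3K27me3 was listed and 6.02% higher and 2.39% lower where it was not. H3K27me3 at those 4 promoters did not pass the test in either direction, with log2 changes of 0.72, 0.31, -0.04 and -0.03. With lambs 2 and 3 left out together, the level-matched median of the 16 was 0.20 and that of the 160 was 0.07.

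Among 8 ZNF regulators of fat cells and metabolism, 0 passed limma's test in H3K27ac or H3K4me3 (0 of 3 and 1 of 6 at an unadjusted p under 0.05), and ZNF638 was the fall in H3K27me3. All promoters at the levels of those 3 had 8.12% higher and 23.4% lower in H3K27ac. At the levels of the 6 in H3K4me3 the shares were 21.9 and 0.0516%, and at that of ZNF638 in H3K27me3 0.946 and 12.3%. ZNF516, a partner of PRDM16 at the Ucp1 promoter in mouse, and ZNF407, which acts on PPARG target genes, were in none of the 3 tables. ZNF521, which opposes early commitment to adipocytes in mouse, had H3K27ac of 204 and 202 in lambs and 189 and 233 in fetuses (log2 change -0.04, limma adjusted p = 0.852). ZNF395, which works with PPARG in human stromal cells, had 278 and 244 in lambs and 286 and 234 in fetuses (log2 change 0.01, limma adjusted p = 0.972). ZNF202, a repressor of lipid metabolism genes, had 338 and 241 in lambs and 218 and 263 in fetuses (log2 change 0.25, limma adjusted p = 0.241). The stages overlapped at all 3 in H3K27ac, while they did not overlap at 68.0% of all promoters at these levels.

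In H3K4me3 the 6 measured fat regulators had log2 changes of 0.44 to 1.13, and each lay below the median of its level, with a level-matched median of -0.26. ZNF746 (PARIS), a repressor of PPARGC1A, had 206, 239 and 249.9 in lambs and 209.6 and 118 in fetuses (log2 change 0.55, limma adjusted p = 0.289). ZNF467, which favours adipocyte over osteoblast fate in mouse, was the weakest H3K4me3 promoter of the family, with 37.2, 48.3 and 58.4 in lambs and 50.6 and 23.6 in fetuses. ZNF395 had the largest change of the list in this mark, with 111, 215 and 215 in lambs and 127 and 48.4 in fetuses (log2 change 1.13, limma adjusted p = 0.120). Lambs and fetuses overlapped at 4 of the 6, the exceptions being ZNF202 and ZNF638. They did not overlap at 61.2% of all promoters at these levels.

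Members listed as not binding DNA, or as having a role in RNA or protein turnover, were strongly marked, at a median H3K27ac percentile of 87.3. Of the 12 measured, 6 fell in H3K27ac while 0 rose. These were ZNF207, ZNF277, ZNF326, ZNF330, ZNF346 and ZNF706, and 37.0% of all promoters at these levels fell too. Their level-matched median was 0.02, and 0 of 12 passed limma's test in H3K4me3 (4 at an unadjusted p under 0.05). At their H3K4me3 levels 4.86% of all promoters were higher and 3.07% lower. Of 8 genes listed as activators of housekeeping or developmental promoters, 1 fell in H3K27ac and 0 rose, beside 21.1% lower and 9.55% higher among all promoters at their levels. The fall was that of ZNF24, known also as the VEGFA repressor named above. ZNF143, which binds the promoters of many housekeeping genes, averaged 222 ± 13.4 in lambs and 172 ± 17.1 in fetuses (SD, n = 2 each, log2 change 0.37, limma adjusted p = 0.0772). In the developmental and neural list of 21, H3K27ac was measured at 12, where ZNF365 rose and ZNF608 and ZNF532 fell, beside 6.82% higher and 28.3% lower among all promoters at these levels. H3K4me3 was measured at 10, where ZNF366 rose and ZNF608 fell, beside 9.61 and 0.943% of all at these levels. Of the 4 measured genes of imprinting and heterochromatin, 0 passed limma's test in either active mark (1 in H3K27ac and 0 in H3K4me3 at an unadjusted p under 0.05). All promoters at their levels had 14.03% higher and 10.8% lower in H3K27ac, and 7.04 and 2.40% in H3K4me3. With 4 genes measured, 0 calls cannot be told apart from such shares. Of these genes ZNF331, imprinted in human, averaged 200.2 ± 0.922 in lambs and 148 ± 13.4 in fetuses in H3K27ac (SD, n = 2 each, log2 change 0.43, limma adjusted p = 0.0552).

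Gene order, read from a RefSeq table of the sheep assembly ARS-UI_Ramb_v3.0 for 170 of 204 members, separated 72 with another ZNF, ZSCAN, ZKSCAN or ZFP gene among the 2 nearest genes on either side from 98 without one. In H3K27ac, 5 rose and 5 fell of 49 clustered members, and 3 rose and 13 fell of 87 unclustered ones. At their levels, 12.1% of all promoters rose and 17.6% fell for the clustered set, and 9.05% rose and 24.2% fell for the unclustered set. In H3K4me3, 7 rose and 1 fell of 63 clustered members, 3 rose and 2 fell of 80 unclustered ones, and 4 rose and 1 fell of 33 with no place in the order. All promoters at the levels of these 3 sets had 6.19, 6.85 and 7.20% higher and 2.07, 2.37 and 1.68% lower. The level-matched medians were 0.03 and 0.07 in H3K27ac and 0.06 and -0.04 in H3K4me3 for clustered and unclustered members.

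Of 27 pairs of neighbouring members measured in H3K4me3, 0 were called in the same direction in both genes, and of 16 pairs in H3K27ac also 0. With 18 and 29 members called in all, these pairs are too few to read a pattern from. The 1 pair called in opposite directions was ZNF391, higher in lambs, and ZNF184, lower. ZNF793 rose in H3K4me3 beside ZNF829, whose H3K4me3 averaged 1078 ± 253 in lambs and 1729 ± 559 in fetuses (SD, n = 3 and 2, log2 change -0.67, limma adjusted p = 0.148). ZNF404 rose beside ZNF283, with H3K4me3 means of 616 ± 11 in lambs and 623 ± 158 in fetuses (SD, n = 3 and 2, log2 change 0.01). Related copies can share 50-base reads, and the labels do not say how the mapping treated such reads, so values of close paralogs are uncertain.

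The corepressor machinery through which KRAB proteins act had H3K27ac at 19 of 26 listed genes, with 4 higher and 4 lower in lambs (21.1% each), beside 11.6% higher and 18.8% lower among all promoters at these levels. TRIM28 itself averaged 135 ± 3.90 in lambs and 111 ± 15.7 in fetuses (SD, n = 2 each, log2 change 0.28, limma adjusted p = 0.310), and SETDB1 averaged 111 ± 9.56 in lambs and 137 ± 9.99 in fetuses (log2 change -0.30, limma adjusted p = 0.272). CHD4, the remodeller of the NuRD complex, rose to 365 ± 52.5 in lambs against 251 ± 23.6 in fetuses (log2 change 0.53, limma adjusted p = 0.00771), with DNMT3A, ATF7IP and MORC3. CBX5, which encodes HP1 alpha, fell to 398 ± 13.7 in lambs against 604 ± 56.0 in fetuses (log2 change -0.60, limma adjusted p = 0.00145), with SMARCAD1, DNMT3B and PPHLN1. In H3K4me3, 0 of 20 passed limma's test (4 at an unadjusted p under 0.05), and in H3K27me3 0 of 2 (0 unadjusted). All promoters at those levels had 6.99% higher and 1.86% lower in H3K4me3 and 1.42 and 1.58% in H3K27me3. Among other zinc finger families, in H3K27ac 1 rose and 1 fell of 11 ZSCAN and ZKSCAN genes, 1 and 2 of 8 ZFP genes, 3 and 5 of 23 ZBTB genes and 2 and 2 of 12 KLF genes. All promoters at the levels of these families had 10.04, 6.18, 9.76 and 10.6% higher and 20.6, 29.8, 22.1 and 18.7% lower. Their level-matched medians in that mark were within 0.02 of 0 for the first 3 and -0.10 for KLF genes, against 0.04 for ZNF genes.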

How the data were processed

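The authors deposited 1 promoter table per mark with a scaled signal per promoter and library, and peak tables of read counts, per the file headers, used here for depth alone. Per the labels, CLC Genomics Workbench 7.0 mapped the reads to Oar_v3.1. Further tools in the submitters' processing notes, with no role stated, are bedtools 2.19.0, edgeR and MACS. No label or header gives the promoter window or the deposited scaling factor. The step of each column, the value of 1 read, was 0.369 to 0.571 for H3K27ac, 0.565 to 1.34 for H3K4me3 and 3.43 to 3.57 for H3K27me3.

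Column totals times TMM factors (edgeR 4.0.16) replaced the deposited scaling. Log2(value + 1) was fitted by limma 3.58.1 (trend method), lamb minus fetus, stage as the only term, with Benjamini-Hochberg adjustment over all promoters of a mark and a threshold of 0.05. The method was also run on simulated data with a common spread for all promoters of a mark and no slope with level. The real data differ in both, so no support for the calls is drawn from that run. Adding 1 shrinks the log2 changes of low promoters slightly, and a pseudocount of 10 left the same ZNF promoters called. For a single promoter the smallest two-sided exact permutation p is 0.333 with 2 lambs and 2 fetuses and 0.2 with 3 lambs, and nothing beyond the stage labels says what else separates the animals.

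Genes named are, per mark, up to 8 rises and 8 falls among calls without overlap, the 3 highest and 3 lowest levels, the fat regulators, and members called in 2 marks. Others are named in role lists, by H3K27me3 state or by neighbours, after their values were seen. Members and lists were chosen with earlier results of these data known. Protein domains and promoter sequences were not analysed here. Input libraries have no values in these tables.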

Additional observations from a re-analysis of the deposited data

How the results depend on the processing

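A pseudocount of 10, a filter on mean values under 50 in both stages, and 10 or 50 groups of level left each count of higher and lower ZNF promoters within 1.5 times of the reported one. Column totals alone shifted the median log2 change of all promoters to 0.11 (H3K27ac) and 0.13 (H3K4me3 and H3K27me3). With column totals 22 members were higher in H3K27ac, beside 2314 of all 13222 promoters. The deposited scaling shifted that median to -0.30, -1.28 and -0.06 in H3K27ac, H3K4me3 and H3K27me3. It gave 0 higher and 36 lower members in H3K27ac, 0 higher and 80 lower in H3K4me3 and 0 higher in H3K27me3. Cyclic loess gave 15 higher and 7 lower in H3K27ac (10 of the 29 reported calls), 0 and 0 in H3K4me3, where 0 of all 12922 promoters passed, and 0 lower in H3K27me3.

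Leaving out 1 library at a time, H3K27ac gave 1 to 28 higher and 4 to 25 lower, H3K4me3 0 to 35 higher and 0 to 32 lower, and H3K27me3 0 to 3 higher and 0 to 2 lower. Few ZNF calls came without H3K27ac lamb 1 or lamb 2, or H3K27me3 fetus 1, fetus 2 or lamb 2, fits that leave 1 library in a stage. In H3K4me3 0 ZNF calls came without lamb 2 or lamb 3. Calls over all promoters were also fewer in each of these fits than in the reported one. In H3K4me3 they were 40 higher and 10 lower without lamb 2 and 8 and 4 without lamb 3, beside 1077 and 245 in the reported fit. With H3K4me3 lambs 2 and 3 out together 0 were higher and 0 lower, the level-matched median was 0.0739, and the lone lamb was assumed to vary like the fetuses. Level-matched medians ranged, over the fits without 1 library, from 0.035 to 0.0866 in H3K27ac, 0.0249 to 0.0828 in H3K4me3 and -0.23 to 0.17 in H3K27me3.

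Replicate numbers name different animals in the 2 stages. Deviations of same-numbered libraries correlated at 0.277 (H3K27ac), -0.394 (H3K4me3) and 0.0988 (H3K27me3). The replicate block gave 20 higher and 23 lower members in H3K27ac, 0 and 0 in H3K4me3 (lamb 3 left out) and 1 and 2 in H3K27me3. Over all promoters it gave 2343 higher and 2912 lower in H3K27ac, 3 and 0 in H3K4me3 and 506 and 746 in H3K27me3. A crossed replicate block in H3K4me3, chosen after seeing the data, gave 9 higher and 10 lower members, beside 688 and 726 of all promoters.

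Among the called members, those of the naming rule and others given with a value, changes turned sign as follows, and of these ZNF326, ZNF706 and ZNF829 in H3K27ac and ZNF391, ZNF507, ZNF527 and ZNF624 in H3K4me3 had passed the test. With column totals these were ZNF521 (0.0476) in H3K27ac and ZNF536 (0.0186) and ZNF713 (0.0706) and ZNF391 (0.0793) in H3K27me3. With the deposited scaling they were, in H3K27ac, ZNF202 (-0.0686), ZNF395 (-0.31) and ZNF514 (-0.12), and in H3K4me3 ZNF391 (-0.35), ZNF527 (-0.13), ZNF624 (-0.11), ZNF507 (-0.0801), ZNF283 (-1.28), ZNF202 (-0.66), ZNF395 (-0.15), ZNF446 (-0.44), ZNF467 (-0.82), ZNF521 (-0.45), ZNF638 (-0.56), ZNF672 (-0.0788) and ZNF746 (-0.73). After cyclic loess they were, in H3K27ac, ZNF514 (-0.14), ZNF326 (0.0598), ZNF706 (0.000653) and ZNF829 (0.0287), in H3K4me3 ZNF202 (-0.13), ZNF446 (-0.68), ZNF467 (-1.38), ZNF521 (-0.0321), ZNF638 (-0.15), ZNF672 (-0.29), ZNF746 (-0.18), ZNF829 (0.0322) and ZNF830 (0.22), and in H3K27me3 ZNF232 (0.0545) and ZNF536 (0.14). Without 1 library the sign of these varied, with log2 changes in H3K27ac ZNF395 (-0.12 to 0.16), ZNF514 (-0.14 to 0.54), ZNF521 (-0.19 to 0.12), ZNF804A (-0.74 to 0.46), in H3K4me3 ZNF521 (-0.0124 to 1.67), ZNF467 (-0.10 to 0.97), ZNF672 (-0.0206 to 2.39), ZNF283 (-0.25 to 0.27; -0.00182 with lambs 2 and 3 out), in H3K27me3 ZNF391 (-0.37 to 0.29), ZNF404 (-0.0339 to 0.63), ZNF713 (-0.60 to 0.50), ZNF804A (-0.98 to 0.31).

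The cause of these changes was not tested. Count tests on whole reads (edgeR's quasi-likelihood test and DESeq2) were not run, since the deposited promoter values are scaled. H3K27me3 promoters held few reads, with 2 libraries per stage, and a log2 change of -0.68 at ZNF385D did not pass there. No detection limit was computed.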
